A study of Mus musculus with 18 samples.

Results

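A set of 10 genes that sense, make or break down extracellular nucleotides, or sense thrombin, were followed through an IgE-triggered response of mouse basophils. They were the nucleotide receptors P2ry1, P2ry14, P2rx1, P2rx4 and P2rx7, the thrombin receptor F2r, and the surface enzymes Entpd1, Enpp1, Enpp3 and Cd38. They were picked with earlier results of these data known, so their shares of calls against all genes are descriptions. They are 10 of the 56413 genes in the table, taken by gene symbol. Of them 9 passed the filter on low counts, as did 14076 genes in all. The 18 libraries came from bone marrow cells of WT mice and of mice labelled TTP-KO. TTP is tristetraprolin, the product of Zfp36, a zinc finger protein that recognises AU-rich stretches in the 3′ UTR of many cytokine mRNAs and speeds their decay. Both genotypes were cultured for 7 days with IL-3 at 0.3 ng/mL, loaded at day 6 with a TNP-specific IgE at 1 µg/mL (TNP is a small hapten), and enriched for CD49b+ cells on magnetic beads. Basophils were then given control OVA at 10 ng/mL for 2 h, or TNP-OVA, the antigen that cross-links this IgE, at 10 ng/mL for 2 h or 4 h. That made 6 groups of 3 libraries. The control was taken at 2 h only, so a 4 h response is set against a 2 h control and includes any change with time in culture. The labels give neither the allele, the strain and the age of the mice, nor whether each replicate had its own mouse or culture. The p-values then cover only the spread between samples, which may be technical.

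As background, cells under stress or activation release ATP, ADP and UDP-sugars. P2X receptors are cation channels opened by ATP, while P2Y receptors are G protein-coupled and answer ADP, ATP, UTP, UDP or UDP-sugars. Entpd1 (CD39) breaks ATP and ADP down to AMP, the enzymes of the Enpp family split nucleotides by another route, and Nt5e (CD73) turns AMP into adenosine, which has receptors of its own. Cd38 consumes NAD and makes ADP-ribose and cyclic ADP-ribose. F2r (PAR1) is activated when thrombin cuts its extracellular end. Enpp3 (CD203c) is a surface marker of activated human basophils, and ADP, ATP and adenosine are known to tune mediator release by mast cells and basophils.

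Library totals ran from 5516580 to 12733172 counts. The targeted gene Zfp36 was at like or higher levels in the libraries labelled TTP-KO. It had 224, 239 and 247 CPM (counts divided by the TMM-scaled library size) in the WT control libraries and 219, 228 and 225 in those labelled TTP-KO. After 2 h of antigen it had 446, 459.9 and 439 and 568, 553 and 572 CPM. After 4 h it had 268, 307 and 309 and 349, 322 and 301 CPM. The 2 h difference passed the test (log2 0.33 ± 0.05, adjusted p = 0.000316). The altered part of Zfp36 is not described in the labels, so this count is no check of the genotype, and the groups are called by their labels. All 12 basophil markers used for the check (Mcpt8, Prss34, Fcer1a, Cd200r3 and others) were measured, and their summed level was 22960 to 31210 CPM. Markers of other cells were measured as well. The 13 monocyte and macrophage markers summed to 6902 to 8391 CPM in WT libraries and 8354 to 9874 CPM in those labelled TTP-KO, and the 11 neutrophil markers to 1214 to 1740 and 2034 to 2712 CPM. The 13 platelet and megakaryocyte markers summed to 1807 to 2364 CPM in WT libraries and 1614 to 2221 CPM in those labelled TTP-KO. For dendritic cell markers, 9 genes that include the MHC class II genes H2-Aa and H2-Ab1, the sums were 3483 to 3948 and 2369 to 2645 CPM. For mast cell markers, which share Cpa3 with the basophil list, they were 1086 to 1534 and 957.4 to 1399 CPM. The sums of B cell markers were 60.1 to 76.3 and 29.1 to 39.1 CPM. T cell and NK cell markers summed to at most 6.71 CPM, with Klra8 at 0 in all 18 libraries. The lysates are of bulk CD49b-enriched cells, in which fewer cells of a type and less of an RNA per cell cannot be told apart.

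The heptamer TATTTAT is the core of the AU-rich element to which TTP binds, so the 3′ UTRs of the members were searched for it on the sense strand. It was found in P2ry1, F2r, Cd38 and Enpp3, and not in P2ry14, P2rx1, P2rx4, P2rx7, Entpd1 or Enpp1. Nor was it found in F2rl2, Adora2b or Nt5e, 3 related genes described with the members. A match is a description of the sequence: 25.6% of the 20914 genes with an annotated 3′ UTR hold at least 1. The matches of P2ry1, F2r and Cd38 are printed because these members passed the test between genotypes in more conditions than the others. The letters are from GENCODE M21 transcripts on build GRCm38, which is not the build named in the submitters' processing notes (GRCm39), and capitals mark the heptamer in its 23-base surroundings.
P2ry1 site 1, chr3:61007628-61007650, plus strand: tgtaatagTATTTATtgaagagg
P2ry1 site 2, chr3:61007696-61007718, plus strand: gtaaattcTATTTATtgcagtgt
P2ry1 site 3, chr3:61008022-61008044, plus strand: tatgtgtaTATTTATattataga
F2r, chr13:95602422-95602444, minus strand: ttacacacTATTTATttacaaat
Cd38, chr5:43911498-43911520, plus strand: tcctcattTATTTATttaattga
The P2ry1 matches began at bases 774, 842 and 1168 of a 3′ UTR of 2117 bases, that of F2r at base 1297 of 1930, and that of Cd38 at base 1163 of 2032. In Cd38 and Enpp3 the match is part of the longer form TTATTTATT.

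P2ry1, a Gq-coupled ADP receptor, rose after antigen in both genotypes. The WT control libraries had 138, 151 and 154 CPM, and those given antigen had 329, 320.5 and 356 CPM at 2 h and 336, 366 and 351 CPM at 4 h. The libraries labelled TTP-KO had 155, 147 and 145 CPM in the control, 283, 289.6 and 304 CPM at 2 h and 239, 225 and 236 CPM at 4 h. Every antigen library lay above every control library. The genotypes overlapped in the control, and at 2 h and 4 h all WT libraries lay above all those labelled TTP-KO. In WT cells the log2 fold change against the control was 1.18 ± 0.05 (SE) at 2 h and 1.25 ± 0.05 at 4 h, with adjusted p = 4.13e-17 and 2.56e-17. Here and throughout, adjusted p is from edgeR's quasi-likelihood test with Benjamini-Hochberg adjustment over the 14076 genes tested, with a threshold of 0.05. In the libraries labelled TTP-KO the change was 0.97 ± 0.05 at 2 h and 0.65 ± 0.05 at 4 h (adjusted p = 3.65e-15 and 3.92e-11). From 2 h to 4 h the WT value was 0.07 and did not pass (adjusted p = 0.349), and P2ry1 fell by 0.32 on the log2 scale in those labelled TTP-KO (adjusted p = 1.19e-05).

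An antisense gene, Gm37035, overlaps P2ry1 exons, and no source used here gives the strand setting, so reads of the pair cannot be told apart. Gm37035 had 17.7 to 51.8 CPM over the 18 libraries. With its counts added to those of P2ry1, a check chosen after seeing the data, the WT responses were 1.12 at 2 h and 1.15 at 4 h on the log2 scale, and the difference between genotypes at 4 h was -0.60 (adjusted p = 3.58e-10). P2ry1 lies at chr3:61002795-61008982 on the plus strand of GRCm38, and its RefSeq promoter on that build (GRCm38.p6, 250 bases before to 50 after the start, chr3:61002535-61002834) is printed with that of F2r, since these 2 receptors rose together at 2 h.
P2ry1 promoter, plus strand: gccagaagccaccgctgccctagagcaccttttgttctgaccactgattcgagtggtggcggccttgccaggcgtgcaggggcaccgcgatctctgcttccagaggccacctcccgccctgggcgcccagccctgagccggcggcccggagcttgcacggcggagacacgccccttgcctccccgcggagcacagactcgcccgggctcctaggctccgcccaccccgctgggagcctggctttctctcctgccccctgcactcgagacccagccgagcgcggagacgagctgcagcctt
F2r promoter, chr13:95618417-95618716, minus strand: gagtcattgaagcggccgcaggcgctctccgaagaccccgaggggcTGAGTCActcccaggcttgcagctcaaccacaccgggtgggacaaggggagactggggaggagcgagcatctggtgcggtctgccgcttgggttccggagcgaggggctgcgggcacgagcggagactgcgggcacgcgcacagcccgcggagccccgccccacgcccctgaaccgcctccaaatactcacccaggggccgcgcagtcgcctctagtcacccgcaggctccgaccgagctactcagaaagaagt
The capitals mark the AP-1 motif TGANTCA, which 7.81% of 32851 promoters of this length hold on either strand. The F2r window held 1 such match and the P2ry1 window none. Among members that fell at 2 h in WT cells, 2 of the 4 P2ry14 promoters and 1 of the 2 P2rx7 promoters also held 1. Those of P2rx4 and Entpd1 held none. The promoter of F2rl2, which is not a member and rose at 2 h, held 2. Neither the P2ry1 nor the F2r window held the NFAT core GGAAAA, the CRE TGACGTCA, the EGR motif GCGGGGGCG or the GATA motif AGATAA. Of all promoters 23.4%, 1.79%, 2.91% and 11.2% hold these.

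P2ry14, the receptor for UDP-glucose and other UDP-sugars, moved the other way and came back in part. The WT libraries had 86.3, 93.8 and 102 CPM in the control, 39.1, 39.1 and 38.7 CPM at 2 h and 80.03, 65.3 and 79.0 CPM at 4 h. In those labelled TTP-KO the values were 80.02, 85.2 and 88.0, then 34.1, 35.2 and 36.4, then 52.8, 51.3 and 53.4 CPM. All antigen libraries lay below all control libraries of their genotype, and the 2 h libraries were the lowest. At 2 h the log2 fold change was -1.27 ± 0.08 in WT cells and -1.26 ± 0.08 in those labelled TTP-KO (adjusted p = 1.42e-13 and 2.26e-13). At 4 h it was -0.33 ± 0.07 and -0.69 ± 0.08 (adjusted p = 0.000601 and 2.51e-08). The rise from 2 h to 4 h was 0.94 ± 0.08 in WT cells and 0.58 ± 0.08 in those labelled TTP-KO, and each passed the test (adjusted p = 2.21e-10 and 3.04e-06). P2ry14 lies within Med12l on the opposite strand without sharing exons, and Med12l had 5.75 to 11.9 CPM.

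**Figure D1:**
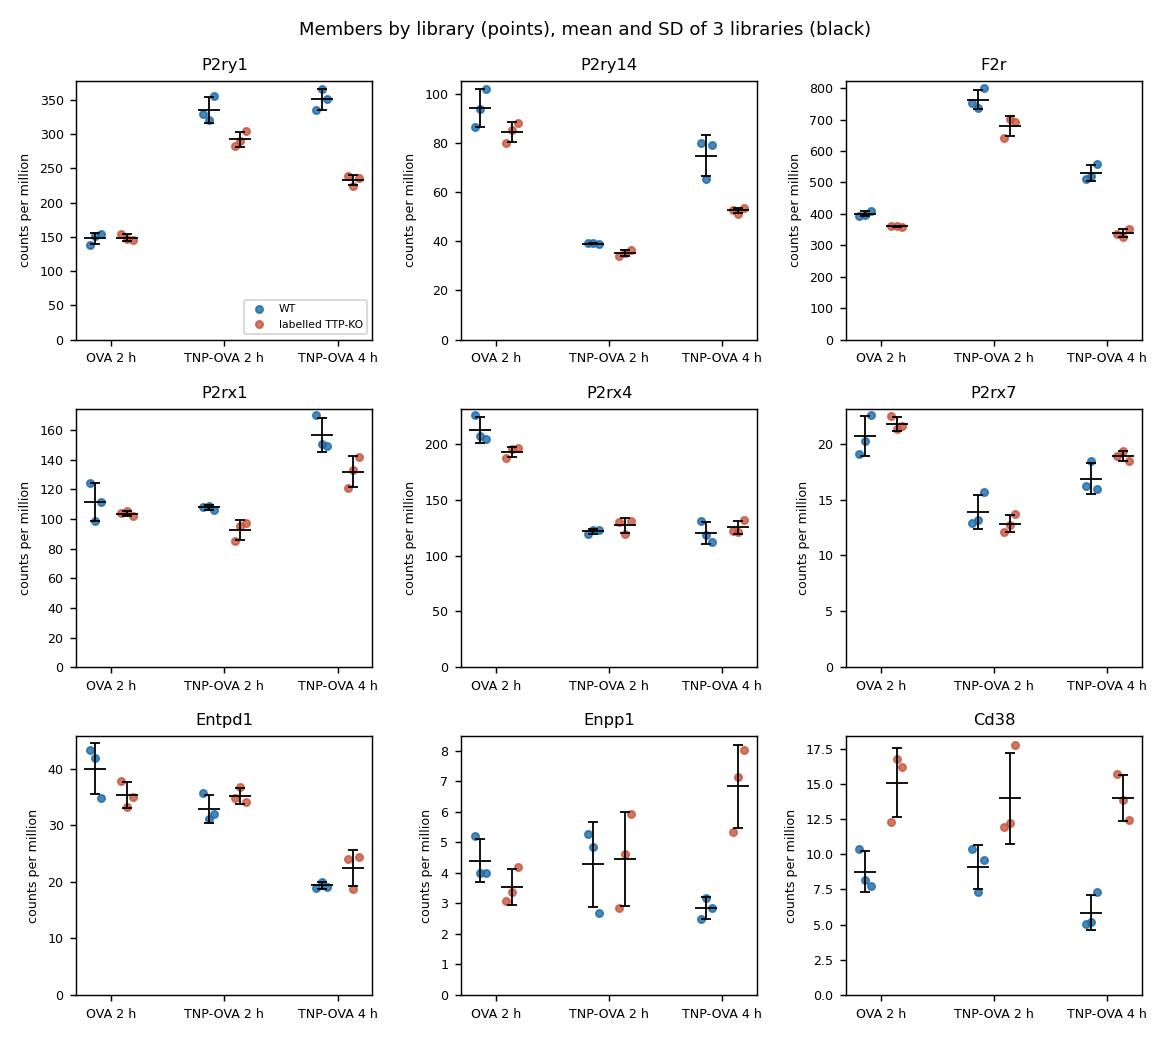
CPM (vertical axes, linear, from 0) of the 9 detected members in each library, by condition, with WT in blue and libraries labelled TTP-KO in red. Black lines are the mean and SD of 3 libraries. P2ry1 rises from 138 to 155 CPM in the controls to 225 to 366 CPM after antigen, while P2ry14 falls to 34.1 to 39.1 CPM at 2 h.

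The 3 ATP-gated channels each had their own course. P2rx4, the channel best known from microglia and macrophages, fell at 2 h. Its WT libraries had 226, 207 and 204 CPM in the control, 119, 123 and 123 CPM at 2 h and 131, 118 and 112 CPM at 4 h. Those labelled TTP-KO had 188, 195 and 196, 130.1, 119.6 and 131 and 122, 122 and 132 CPM. No antigen library reached the lowest control library. The log2 fold change was -0.80 ± 0.06 at 2 h and -0.82 ± 0.06 at 4 h in WT cells (adjusted p = 3.03e-12 and 1.82e-12). In those labelled TTP-KO it was -0.60 ± 0.06 and -0.62 ± 0.06 (adjusted p = 1.17e-09 and 6.17e-10). The change from 2 h to 4 h did not pass in either genotype (-0.02 ± 0.06 in WT cells, -0.02 ± 0.06 in those labelled TTP-KO, adjusted p = 0.861 and 0.84). The genotypes did not differ past the threshold in any condition (log2 differences -0.14, 0.06 and 0.06).

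P2rx7, the channel that opens at high ATP and forms a large pore, fell at 2 h in both genotypes. It had 19.1, 20.3 and 22.6 CPM in the WT control libraries, 12.9, 13.1 and 15.6 CPM at 2 h and 16.2, 18.4 and 16.0 CPM at 4 h. The libraries labelled TTP-KO had 22.5, 21.3 and 21.5, 12.1, 12.8 and 13.7 and 18.9, 19.3 and 18.5 CPM. In both genotypes the 2 h libraries lay below all others of that genotype. The fall at 2 h was -0.57 ± 0.12 in WT cells and -0.76 ± 0.12 in those labelled TTP-KO on the log2 scale (adjusted p = 0.000239 and 5.41e-06). At 4 h the WT value was -0.29 ± 0.11 (adjusted p = 0.0325), a call lost without WT control replicate 2 or 3, without WT 4 h replicate 1 or 3, with no filter on low counts and by DESeq2 (adjusted p up to 0.185). The value in those labelled TTP-KO was -0.20 ± 0.11 and did not pass (adjusted p = 0.153). From 2 h to 4 h P2rx7 rose in those labelled TTP-KO (0.56 ± 0.12, adjusted p = 0.000499), and the WT value was 0.28 ± 0.12 (adjusted p = 0.0673). The difference between these changes did not pass (0.28 ± 0.17, adjusted p = 0.655).

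P2rx1, the fast-desensitizing channel also found on platelets, rose late. Its WT libraries had 124, 98.7 and 111 CPM in the control, 108, 109 and 106 CPM at 2 h and 170.2, 151 and 149.5 CPM at 4 h. The TTP-KO libraries gave 104, 105 and 102, 85.2, 95.6 and 97.2 and 121, 133 and 142 CPM. At 2 h WT control and antigen libraries overlapped (log2 fold change -0.05, adjusted p = 0.634). In those labelled TTP-KO all 2 h libraries lay below all controls, with -0.16 ± 0.07 (adjusted p = 0.0985), which passed with no filter on low counts (-0.18, adjusted p = 0.0468). At 4 h all antigen libraries lay above all controls of their genotype. The 4 h change was 0.49 ± 0.07 in WT cells and 0.35 ± 0.07 in those labelled TTP-KO (adjusted p = 2.95e-06 and 0.000387). Of the 13 platelet and megakaryocyte markers none rose and 7 fell at 4 h in WT cells, where 19.6% of all genes rose and 18.4% fell. The sum of these markers was 2008 to 2364 CPM in the WT control libraries and 1807 to 1930 CPM in the WT 4 h libraries. Between genotypes at 4 h 1 of the 13 markers was lower and none higher in the libraries labelled TTP-KO, against 3.4% and 1.83% of all genes. The part of these markers in the P2rx1 values was not tested.

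F2r, the thrombin receptor PAR1, rose at 2 h in both genotypes and then came down by different amounts. The WT libraries had 394, 398 and 411 CPM in the control, 754, 738 and 799 CPM at 2 h and 512, 521 and 558 CPM at 4 h. Those labelled TTP-KO had 361, 360.5 and 359.5 CPM, then 642, 704 and 693 CPM, then 336, 327 and 352 CPM. WT libraries at 4 h were still above all their controls, whereas those labelled TTP-KO were below all of theirs. At 2 h the log2 fold change was 0.93 ± 0.04 and 0.92 ± 0.04 (adjusted p = 2.12e-16 and 3.29e-16). At 4 h it was 0.40 ± 0.04 in WT cells (adjusted p = 1.61e-08) and -0.09 ± 0.04 in those labelled TTP-KO, which did not pass (adjusted p = 0.12). From 2 h to 4 h F2r fell by 0.53 on the log2 scale in WT cells and by 1.01, to 2.01-fold lower, in those labelled TTP-KO (adjusted p = 1.21e-10 and 1.21e-16). F2r lies at chr13:95601803-95618487 on the minus strand of GRCm38, where no other annotated gene overlaps it.

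Among the ectoenzymes, Entpd1 (CD39) was lower at 4 h in both genotypes. The WT libraries had 43.2, 41.9 and 34.8 CPM in the control, 35.6, 31.1 and 31.9 CPM at 2 h and 19.0, 20.0 and 19.1 CPM at 4 h. For those labelled TTP-KO they were 37.8, 33.2 and 35.0, 34.8, 36.8 and 34.1 and 24.1, 18.8 and 24.4 CPM. All 4 h libraries lay below all others, while control and 2 h libraries overlapped. The 4 h change was -1.04 ± 0.10 in WT cells and -0.64 ± 0.10 in those labelled TTP-KO (adjusted p = 2.18e-09 and 1.03e-05). At 2 h the WT value was -0.28 ± 0.10 (adjusted p = 0.0331), a call lost with another scaling, by DESeq2, with only the 2 groups fitted, and without WT control replicate 1 or 2 or WT 2 h replicate 2 or 3 (adjusted p up to 0.161). At 2 h the value in those labelled TTP-KO was -0.00 (adjusted p = 0.995). The interaction, the difference between the genotypes' responses, was not past the threshold at 2 h (0.28 ± 0.14, adjusted p = 0.79) or 4 h (0.40 ± 0.14, adjusted p = 0.277).

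Enpp1, which splits ATP into AMP and pyrophosphate and also hydrolyses cGAMP, was near the lower end of what these libraries measure, with 20.0 to 78.0 counts a library. The WT libraries had 5.20, 3.99 and 3.98 CPM in the control, 5.28, 4.84 and 2.696 CPM at 2 h and 2.47, 3.19 and 2.85 CPM at 4 h. Those labelled TTP-KO had 3.07, 3.36 and 4.21, 2.85, 4.62 and 5.91 and 5.35, 7.14 and 8.01 CPM. At 4 h all libraries labelled TTP-KO lay above all WT libraries, and in the other conditions the genotypes overlapped. In the libraries labelled TTP-KO Enpp1 rose by 0.93 ± 0.27 at 4 h (adjusted p = 0.00807), with adjusted p = 0.0501 without 4 h replicate 3. In WT cells the 4 h value was -0.63 ± 0.28 and did not pass (adjusted p = 0.0807).

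Cd38, which consumes NAD and makes cyclic ADP-ribose, was higher in the libraries labelled TTP-KO in the control and at 4 h. It had 10.4, 8.14 and 7.76 CPM in the WT control libraries and 12.3, 16.8 and 16.2 CPM in those labelled TTP-KO. At 2 h it had 10.4, 7.33 and 9.57 and 12.0, 12.2 and 17.7 CPM, and at 4 h 5.04, 5.21 and 7.32 and 15.7, 13.9 and 12.4 CPM. The genotypes did not overlap in any condition. The log2 difference was 0.79 ± 0.18 in the control (adjusted p = 0.0205), 0.62 ± 0.19 at 2 h, which did not pass (adjusted p = 0.0838), and 1.27 ± 0.19 at 4 h (adjusted p = 3.45e-05). That call in the control was lost without WT replicate 2 or 3 or TTP-KO replicate 2 or 3 (adjusted p 0.0816 to 0.112), and the 2 h difference passed with no filter on low counts (adjusted p = 0.0207). In WT cells Cd38 fell by 0.59 at 4 h on the log2 scale (adjusted p = 0.0186), a call lost without WT control replicate 1 or WT 4 h replicate 1 or 2 (adjusted p up to 0.128). The value at 4 h in those labelled TTP-KO was -0.11 (adjusted p = 0.658). The difference between these 4 h responses was 0.48 and did not pass.

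Markers of other cells also differed between the genotypes, in all 3 conditions. Cd38 levels did not overlap between the genotypes in any of them, whereas Enpp1 separated the genotypes at 4 h only. Of the 11 neutrophil markers tested, 5 were higher and none lower in the control libraries labelled TTP-KO, 7 and 0 at 2 h, and 7 and 1 at 4 h. Their sum was 1591 to 1722 CPM against 2147 to 2495 CPM in the control, and 1214 to 1347 against 2034 to 2290 CPM at 4 h. Of the 13 monocyte and macrophage markers, 3 were higher and 1 lower in the control, 5 and 0 at 2 h, and 8 and 0 at 4 h. B cell, dendritic cell, mast cell, platelet and erythroid markers went the other way, with none higher in any condition. Of the 8 B cell markers 6, 5 and 6 were lower in the control, at 2 h and at 4 h. Of 6 dendritic cell and 6 mast cell markers tested, 3 and 2 were lower in each condition. Of the 13 platelet and megakaryocyte markers 1, 2 and 1 were lower, and of 6 erythroid markers tested 1 in each condition. Over all genes 0.412%, 0.909% and 1.83% were higher, and 1.24%, 1.88% and 3.4% lower, in these comparisons. The 3 genes whose log2 CPM followed Cd38 most closely over the 18 libraries were Ngp, a neutrophil granule protein (Pearson r = 0.88), and Apoe and C1qc, macrophage genes (0.88 each), taken from 9759 genes as a description. For Enpp1 the closest were Dock4, Ms4a14 and Mmp19 (0.75, 0.72 and 0.66). The part of other cells in the differences of Cd38 and Enpp1 was not tested.

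**Figure D2:**
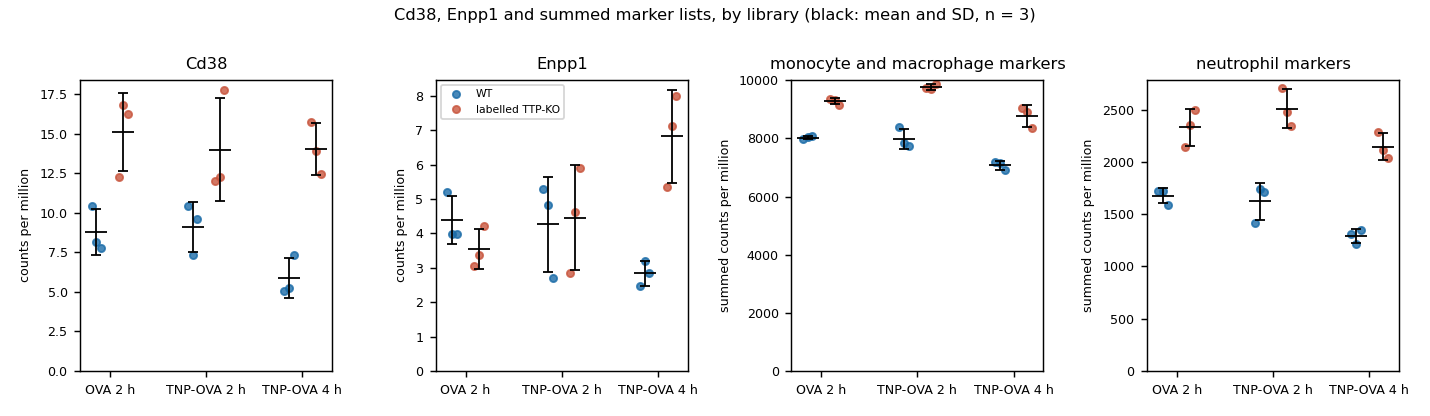
CPM of Cd38 and Enpp1 and the summed CPM of the monocyte and macrophage list and the neutrophil list (vertical axes, linear, from 0), in each library by condition. WT is blue, libraries labelled TTP-KO are red, and black lines are the mean and SD of 3 libraries. Both marker sums and Cd38 lie higher in the libraries labelled TTP-KO in each condition, while Enpp1 separates the genotypes at 4 h only.

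Enpp3 had 0 counts in all 18 libraries, 154963851 counts in all. A count of 0 allows up to 3 counts over the libraries, by counting error only, so Enpp3 RNA was not detected in these mouse cultures at this depth. The annotation behind the counts is not given, and its part in this count of 0 was not tested.

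Set side by side, 2 of the 9 members tested rose and 4 fell in the WT response at 2 h, where 35.1% of all genes tested passed (17.8% higher, 17.3% lower). At 4 h 3 rose and 5 fell in WT cells, against 38% of all genes (19.6% higher, 18.4% lower). In the libraries labelled TTP-KO 2 rose and 3 fell at 2 h, against 34.5% (17.8% and 16.6%), and 3 rose and 3 fell at 4 h, against 35% (18.3% and 16.7%). From 2 h to 4 h 2 rose and 3 fell in WT cells, against 31.1% of all genes (15.2% and 15.9%), and 3 rose and 3 fell in those labelled TTP-KO, against 30.8% (14.6% and 16.2%). Antigen and control libraries did not overlap for 5 of the 9 members at 2 h and all 9 at 4 h in WT cells, against 43.4% and 49.1% of all genes. In those labelled TTP-KO this held for 6 and 8, against 45.3% and 47.5%. The 2 h and 4 h libraries did not overlap for 6 members in each genotype, against 44.2% in WT cells and 43.3% in those labelled TTP-KO. The median log2 fold change of the 9 was -0.05 at 2 h and -0.33 at 4 h in WT cells, against -0.05 and -0.01 over all genes. The 2 h and 4 h responses of a genotype share their control libraries, so their likeness is in part built in. The members were picked with earlier results known, so an excess over the share of all genes may be built in too.

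Between genotypes, 1 of the 9 members passed in the control (Cd38, higher in the libraries labelled TTP-KO), where 1.65% of all genes passed (0.412% higher, 1.24% lower). At 2 h 2 passed, both lower, against 2.79% of all genes (0.909% higher, 1.88% lower). These were P2ry1 (-0.20 ± 0.05, adjusted p = 0.0294) and F2r (-0.17 ± 0.04, adjusted p = 0.0289). Both calls were lost without WT 2 h replicate 3 or TTP-KO 2 h replicate 1, that of P2ry1 also without TTP-KO 2 h replicate 2, and that of F2r with no filter on low counts (adjusted p up to 0.186). At 4 h 6 passed, 4 lower and 2 higher, against 5.22% of all genes (1.83% higher, 3.4% lower). The lower ones were F2r (-0.65 ± 0.04, 1.57-fold, adjusted p = 5.36e-11), P2ry1 (-0.59 ± 0.05, 1.5-fold, adjusted p = 5.54e-09), P2ry14 (-0.51 ± 0.08, adjusted p = 4e-05) and P2rx1 (-0.25 ± 0.07, adjusted p = 0.0308). The P2rx1 call was lost without replicate 1 or 2 of either genotype (adjusted p up to 0.206). The higher ones were Cd38 and Enpp1 (1.26 ± 0.27, 2.39-fold, adjusted p = 0.00376). All libraries of one genotype lay apart from those of the other for 3 of the 9 members in the control, 5 at 2 h and 7 at 4 h, against 17.5%, 18.5% and 25.1% of all genes. In the control F2r was -0.15, with no overlap of the genotypes, and did not pass (adjusted p = 0.0687). Because of how the members were picked, these shares against all genes are descriptions as well.

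**Figure D3:**
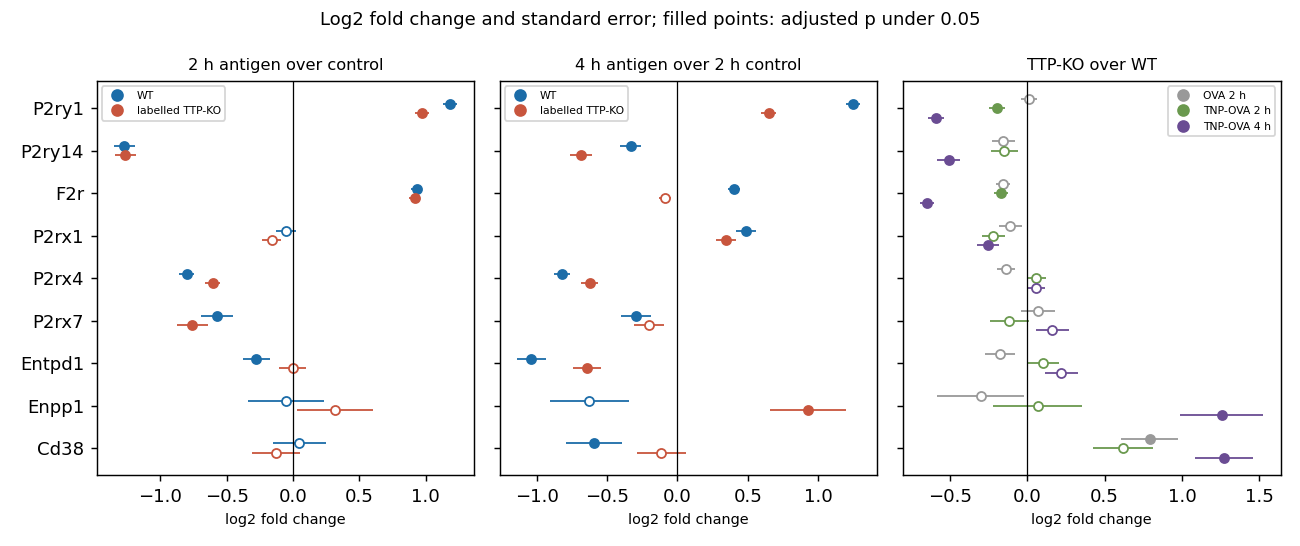
Log2 fold changes (horizontal axes) with their standard errors for the 9 detected members, after 2 h and 4 h of antigen in each genotype (left and middle panels) and between genotypes in each condition (right panel). Filled points have an adjusted p under 0.05. At 4 h F2r, P2ry1, P2ry14 and P2rx1 lie to the left of 0 between genotypes and Cd38 and Enpp1 to the right.

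The test of the difference between responses asks whether antigen moved a gene by different amounts in the 2 genotypes. At 2 h no member passed by edgeR's or DESeq2's test, and 2 of the 9 had an unadjusted p under 0.05 in edgeR (P2ry1 and P2rx4). Of all genes tested 7 passed (0.0497%; 0.0355% higher, 0.0142% lower). At 4 h P2ry1 (-0.60 ± 0.07) and F2r (-0.49 ± 0.06) passed, each with adjusted p = 3.85e-05, where 0.689% of all genes passed (0.277% higher, 0.412% lower). Their change from the control was smaller in the libraries labelled TTP-KO. In the change from 2 h to 4 h the same 2 genes passed, P2ry1 with -0.39 ± 0.07 (adjusted p = 0.00724) and F2r with -0.48 ± 0.06 (adjusted p = 0.000107), against 0.313% of all genes (0.0924% higher, 0.22% lower). The P2ry1 call in that change was lost without TTP-KO 2 h replicate 3 (adjusted p = 0.067) or WT 4 h replicate 2 (adjusted p = 0.0579). These tests share the 4 h libraries and are not independent of each other. The interaction of Enpp1 at 4 h was 1.55 ± 0.39 and did not pass (adjusted p = 0.0611), though it did with no filter (0.0151) and with only the 4 groups fitted (0.033). That of P2ry14 at 4 h was -0.35 ± 0.10 (adjusted p = 0.142), and it passed without WT 4 h replicate 2 (-0.44, adjusted p = 0.0499). In the change from 2 h to 4 h the P2ry14 interaction was -0.36 and did not pass.

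The other genes of nucleotide, adenosine and thrombin signalling were taken from 7 lists chosen by function: 107 genes besides the members, of which 78 passed the filter. In WT cells 16 of the 78 rose and 17 fell at 2 h (42.3%, against 35.1% of all genes), and 16 rose and 23 fell at 4 h (50%, against 38%). In the libraries labelled TTP-KO 18 rose and 17 fell at 2 h (44.9%, against 34.5%), and 16 rose and 24 fell at 4 h (51.3%, against 35%). Between genotypes 1 was higher and 1 lower in the control, 4 and 4 at 2 h, and 3 and 6 at 4 h, which is 2.56%, 10.3% and 11.5% of the 78 against 1.65%, 2.79% and 5.22% of all genes. The 2 h count of 8 was 2 without WT replicate 3 or TTP-KO replicate 1 and 3 without TTP-KO replicate 3. The 4 h count of 9 was 3 to 5 without WT replicate 1, 2 or 3 or TTP-KO replicate 1 or 3, and the control count of 2 was 1 without WT replicate 1 or TTP-KO replicate 2. In the test of the difference between responses F2rl2 and Adora2b passed at 4 h and Adora2b in the change from 2 h to 4 h, all lower in the libraries labelled TTP-KO.

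Of the 12 adenosine genes tested 5 rose and none fell at 2 h in each genotype. That is 41.7% of the list, against 35.1% of all genes in WT cells and 34.5% in those labelled TTP-KO (17.8% higher in each). At 4 h in WT cells 4 rose and 3 fell (58.3%, against 38% of all genes), with Dpp4 at -1.22 ± 0.23. Adora2b, a Gs-coupled adenosine receptor, had 172, 181 and 190.2 CPM in the WT control libraries, 538, 532 and 538 CPM at 2 h and 423, 416 and 429 CPM at 4 h. In those labelled TTP-KO the values were 165, 174 and 178, 455, 507 and 472 and 326, 291 and 292 CPM. It rose by 1.56 ± 0.05 on the log2 scale at 2 h in WT cells (adjusted p = 2.59e-20), and at 4 h was -0.48 ± 0.05 between genotypes (adjusted p = 9.18e-08). Adora3, another adenosine receptor, rose by 1.33 ± 0.06, and Ada, adenosine deaminase, by 1.26 ± 0.15, at 2 h in WT cells. Nt5e, which makes adenosine from AMP, rose by 1.23 ± 0.05 at 2 h and 1.18 ± 0.05 at 4 h in WT cells and by 1.25 ± 0.05 and 1.16 ± 0.05 in those labelled TTP-KO. Within the chain from ATP to adenosine, Entpd1 was lower and Nt5e higher at 4 h.

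In the thrombin system 2 of the 9 other genes tested rose at 2 h in WT cells and none fell. Over all genes 17.8% were higher and 17.3% lower in that comparison (35.1% passed). At 4 h 4 rose and none fell, against 19.6% higher and 18.4% lower over all genes (38% passed). F2rl2 (PAR3), which assists thrombin at other receptors of this family, had 71.1, 71.8 and 72.7 CPM in the WT control libraries, 189.7, 182 and 191 CPM at 2 h and 118, 127 and 143 CPM at 4 h. Those labelled TTP-KO had 67.5, 65.5 and 57.0, 156, 164 and 146 and 87.5, 83.2 and 82.1 CPM. Like F2r it rose at 2 h (1.38 ± 0.07 in WT cells) and was lower in the libraries labelled TTP-KO at 4 h (-0.61 ± 0.07, adjusted p = 2.03e-07). F2rl2 lies near F2r on chromosome 13 (chr13:95696853-95702739, plus strand, GRCm38), within Iqgap2 on the opposite strand without sharing exons. Serpine2, an inhibitor of thrombin, rose by 0.75 ± 0.07 at 2 h in WT cells and was higher in those labelled TTP-KO at 2 h (0.47 ± 0.06, adjusted p = 4.45e-05) and 4 h (0.35 ± 0.06, adjusted p = 0.00057). F10, coagulation factor X, and Procr, the endothelial protein C receptor, rose by 0.88 ± 0.06 and 0.88 ± 0.15 at 4 h in WT cells. F2rl1 had 32.0 counts and F2, prothrombin itself, 7.00 counts over the 18 libraries, and both were below the filter.

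**Figure D4:**
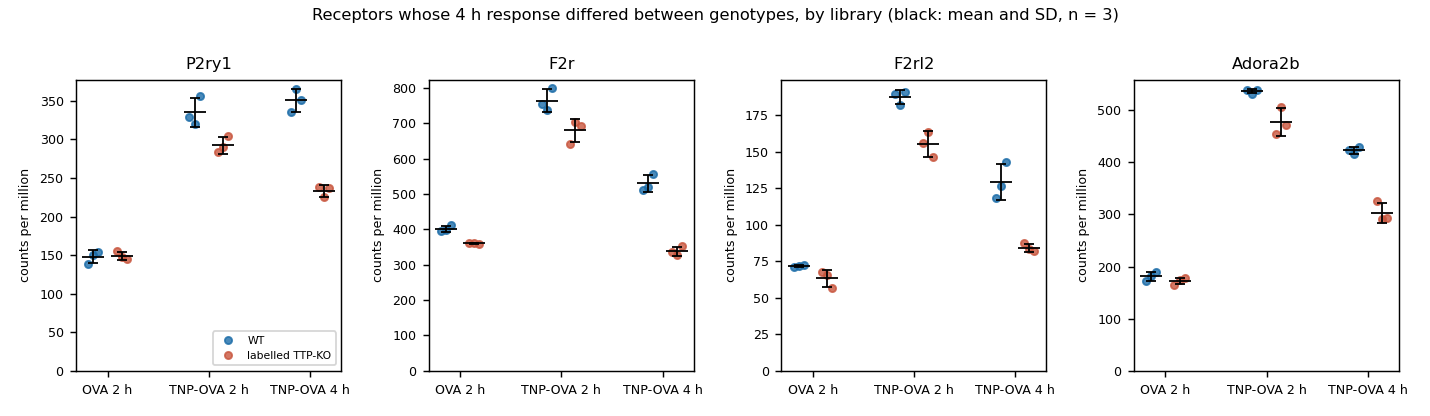
CPM (vertical axes, linear, from 0) of P2ry1, F2r, F2rl2 and Adora2b in each library by condition, with WT in blue, libraries labelled TTP-KO in red and the mean and SD of 3 libraries in black. At 4 h each gene has all libraries labelled TTP-KO below all WT libraries, and F2r is back near its control level in the libraries labelled TTP-KO.

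Of the other nucleotide receptors, 6 passed the filter. P2ry10, which despite its name answers lysophosphatidylserine, fell by 1.24 on the log2 scale at 2 h in WT cells and by 1.09 in those labelled TTP-KO. P2ry10b, a paralog with which it may share reads, rose by 0.92 ± 0.15 and 0.99 ± 0.15. P2ry6, the UDP receptor, rose by 0.47 ± 0.09 at 4 h in WT cells and 0.58 ± 0.08 in those labelled TTP-KO. P2rx2, P2rx3, P2rx6, P2ry4 and P2ry12 were below the filter, with 2.00 to 107 counts over the 18 libraries. P2ry12, also an ADP receptor, had the highest total of them, 107 counts, with some in each library. P2ry13, another ADP receptor chosen for mention after its values were seen, passed the filter with group means of 0.671 to 1.81 CPM and passed none of the 12 tests by edgeR (2 at an unadjusted p under 0.05).

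Among the other 10 ectoenzymes tested, Entpd4 and Entpd5, which act inside the secretory pathway, fell at 2 h in both genotypes. The values were -0.92 ± 0.12 and -0.62 ± 0.13 in WT cells (adjusted p = 2.37e-07 and 0.000248) and -1.04 ± 0.12 and -0.90 ± 0.13 in those labelled TTP-KO (adjusted p = 5.03e-08 and 1.82e-06). At 4 h Entpd5 was -1.13 ± 0.12 and -1.11 ± 0.13. Bst1, the paralog of Cd38, was higher in the libraries labelled TTP-KO at 2 h (0.73 ± 0.20, adjusted p = 0.039) and 4 h (0.66 ± 0.18, adjusted p = 0.0297), but each call was lost without any 1 WT replicate of that time. The 2 h call was also lost without TTP-KO replicate 1 or 3 and by DESeq2, and the 4 h call without TTP-KO replicate 2 or 3 (adjusted p up to 0.21). Of the 10 nucleotide release and transport genes tested, 1 rose and 1 fell at 2 h in WT cells (20%, against 35.1% of all genes). At 4 h 3 rose and 3 fell (60%, against 38%). Gja1 (connexin 43), which can let ATP out of cells, rose by 2.57 ± 0.15 at 2 h in WT cells and 2.54 ± 0.15 in those labelled TTP-KO. In WT cells it went from 5.81 ± 1.01 to 33.8 ± 4.23 CPM (SD, n = 3), and was at 9.3 CPM at 4 h. Calhm2 was at -0.86 ± 0.15 at 2 h in WT cells. Of the 13 NAD genes tested, 1 rose and 4 fell in WT cells at 2 h and likewise at 4 h. That is 38.5% each time, against 35.1% and 38% of all genes. Nmnat2 rose by 1.89 ± 0.505 at 2 h in WT cells, from a mean of 0.713 to 2.89 CPM. Naprt, which makes NAD from nicotinic acid, fell by 1.09 at 2 h in WT cells, and Trpm2, a channel opened by ADP-ribose, fell by 1.11 at 4 h. Among G proteins and receptor kinases 8 of 18 fell and 3 rose at 2 h in WT cells. That is 61.1% of this list, against 35.1% of all genes (17.8% higher, 17.3% lower). Grk6 was at -0.73 ± 0.13 at 2 h, and Plcb1, a target of Gq, was at -1.09 ± 0.19 at 4 h.

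Over the 18 libraries the log2 CPM of P2ry1 followed Upp1, Gzmb and Amigo2 most closely (Pearson r = 0.98 each), that of P2ry14 Pik3cd, Fli1 and Arrb2 (0.98, 0.97 and 0.97), and that of F2r Clint1, Tuba4a and Arpc5 (0.97 each). For P2rx4 the closest were Rassf3, Cdkn1b and Ing1 (0.98 each), for P2rx1 Gapt, Ube2q1 and Eno1 (0.92, 0.90 and 0.90) and for Entpd1 Npc2, Arhgef3 and Scp2 (0.95, 0.94 and 0.94). Within the members the strongest relation was an inverse one, between P2ry1 and P2rx4 (-0.93), and that of P2ry1 with F2r was 0.75. These values describe 18 libraries that share genotypes and treatments, and carry no test.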

How the data were processed

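PolyA RNA of 18 libraries was sequenced in bulk. As deposited by the authors, 1 table holds expected counts per gene (estimated counts with decimals, not normalized), with library totals of 5516580 to 12733172. Per the submitters' processing notes, build GRCm39 and the tools RSEM 1.3.1, STAR 2.7.10a, cutadapt 3.5 and R (4.4.0, 4.4.1) were used, with no role given. Annotation and strand setting are not given in the sources used here. The control columns carry another name than the labels and were matched to control OVA by genotype and number.

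Rounded counts were fitted with edgeR 4.0.16 (R 4.3.3): filterByExpr on the 6 groups, TMM scaling, a robust quasi-likelihood fit with a mean per group over all 18 libraries (12 residual degrees of freedom, biological coefficient of variation 0.0905), and Benjamini-Hochberg adjustment over 14076 genes in each of 12 contrasts, threshold 0.05. CPM values are TMM-scaled. The script was tested on simulated data. Exact permutation of 3 against 3 libraries cannot go below p = 0.1, so tests rest on this fit. Alternatives were RLE scaling, no filter, DESeq2 1.42.0, a replicate block, only the groups compared, and leaving out each library. No library was a copy of another in its group (18 pairs, chi-square per degree of freedom 3.05 to 7.34).

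The members and lists were chosen with earlier results of these data known, and no record says which values were used, so the members' p-values are descriptions. From each other list up to 3 called genes with the largest change per comparison could be named, not all of which are. The 3 genes most like a member had the highest Pearson r of log2 CPM (mean at least 2). Those of P2rx7 are not reported here. Sequences are from GENCODE M21 and RefSeq on GRCm38. The 3′ UTR is that of the transcript with the longest coding sequence.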

Additional observations from a re-analysis of the deposited data

Results flagged for a closer look

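The response to antigen differed between the genotypes, by the test of the difference itself, for 4 receptors. P2ry1 rose less at 4 h in the libraries labelled TTP-KO (difference of log2 fold changes -0.60 ± 0.07, SE) and differed in its change from 2 h to 4 h (-0.39 ± 0.07). For F2r these differences were -0.49 ± 0.06 and -0.48 ± 0.06. Adora2b, an adenosine receptor, gave -0.41 ± 0.07 at 4 h (edgeR adjusted p = 0.00269) and -0.31 ± 0.07 from 2 h to 4 h (edgeR adjusted p = 0.0338). The second of these was lost with the replicate block and in 10 of 12 fits without 1 library (adjusted p up to 0.194), the exceptions being those without TTP-KO replicate 1 at 2 h or at 4 h. F2rl2, the thrombin receptor PAR3, gave -0.43 ± 0.10 at 4 h (edgeR adjusted p = 0.0316). That call was lost with only the 4 groups fitted and without replicate 1 or 2 of either control group, WT 4 h replicate 2 or 3, or TTP-KO 4 h replicate 2 or 3 (adjusted p up to 0.111). The basophil marker sum was 23550 to 25060 CPM in the WT 4 h libraries and 22960 to 23440 CPM in those labelled TTP-KO. Between genotypes at 4 h, 5 of its 12 genes were lower in the libraries labelled TTP-KO and none higher. Over all genes 3.4% were lower and 1.83% higher in that comparison. The part of the basophil markers in these differences was not tested.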

How the results depend on the processing

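Of the 108 values of members (9 genes in 12 contrasts), 49 passed the threshold. RLE scaling lost 1 of these, no filter 2, the replicate block 1, DESeq2 2 and fitting only the groups compared 1, and leaving out 1 library lost 31 of 318. None of the 49 changed sign. Replicate numbers did not pair the libraries (0 of 45 same-number pairs correlated above 0.1, from -0.08 to 0.04), so the block is an alternative only. It lost P2rx1 between genotypes at 4 h (-0.25, adjusted p = 0.0518) and gained F2r in the control (adjusted p = 0.041).

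For the members, the count between genotypes in the control was 2 with the block and with DESeq2, in place of 1. For the other pathway genes it was 4 with no filter and 1 with only the groups compared, in place of 2. Their interaction counts were 5 at 4 h and 3 from 2 h to 4 h with no filter, and 0 from 2 h to 4 h with the block, in place of 2 and 1. Without 1 library the members' counts were 0 to 1 in the control, 0 to 2 between genotypes at 2 h and 1 to 2 in the interaction from 2 h to 4 h. For the other genes they were 1 to 3 in the control, 2 to 9 at 2 h, 3 to 6 at 4 h, 1 to 3 in the 4 h interaction and 0 to 1 in that from 2 h to 4 h.

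Values near 0 that changed sign, none of them past the threshold, were Entpd1 at 2 h in the libraries labelled TTP-KO (0.017 by RLE and by DESeq2, 0.020 with only the groups compared), P2rx4 from 2 h to 4 h with no filter (0.023 in WT and 0.012 in TTP-KO), Cd38 from 2 h to 4 h in TTP-KO (-0.0062 by RLE, -0.0085 by DESeq2), the 2 h interaction of P2ry14 (-0.011 with only the groups compared), the 2 h to 4 h interaction of P2rx4 (0.0022 by RLE, 0.0026 by DESeq2, 0.0024 with only the groups compared) and P2ry1 between genotypes in the control (-0.021 with Gm37035 added). Without 1 library, further uncalled values spanned 0: between genotypes P2ry1 in the control (-0.036 to 0.044) and Enpp1 at 2 h (-0.19 to 0.31); the WT response at 2 h of P2rx1 (-0.13 to 0.031), Enpp1 (-0.22 to 0.20) and Cd38 (-0.051 to 0.19); the TTP-KO response at 2 h of Entpd1 (-0.052 to 0.038); the change from 2 h to 4 h of P2rx4 (-0.079 to 0.032 in WT, -0.071 to 0.0019 in TTP-KO) and of Cd38 in TTP-KO (-0.086 to 0.21). The same held for the interactions at 2 h of P2ry14 (-0.063 to 0.060) and F2r (-0.0501 to 0.025), and from 2 h to 4 h of P2rx1 (-0.093 to 0.028) and P2rx4 (-0.0502 to 0.061).

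Over all genes, no filter and DESeq2 called 55 and 17 genes in the 2 h interaction in place of 7, 259 and 159 at 4 h in place of 97, and 134 and 104 from 2 h to 4 h in place of 44. No filter called 399 between genotypes in the control in place of 232. The cause of these changes was not tested. Depth limits Enpp1 and Cd38 the most among the detected members. The origin of the replicates is not given.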
